A study of Mus musculus with 53 samples.

Results

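Dab2, Cubn, Amn and Lrp2 are 4 of the 21938 protein-coding genes on the mouse autosomes and sex chromosomes, and they were chosen by name as members of one endocytic system. Lrp2 encodes megalin and Cubn encodes cubilin, the large receptors that bind proteins, vitamins and lipoproteins at the apical surface of absorptive epithelia. Amn encodes amnionless, the membrane-spanning partner that carries cubilin to that surface, and Dab2 encodes the adaptor that links the receptor tails to clathrin. The system is known for its roles in the visceral endoderm, the derivative of primitive endoderm (PrE) that takes up maternal nutrients, and in the proximal tubule of the kidney.

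The samples were mouse embryonic stem cells (ESCs) of the SGGC line, made from E14JU ESCs, in which endogenous SOX2 is fused to GFP and endogenous GATA6 to mCherry. SOX2 is a transcription factor of pluripotent cells and GATA6 one of PrE. The populations were SGGC cells in 2iLIF, in NACL, in KOSR culture sorted as SOX2 single-positive (SOX2+) or as positive for both reporters (DP), and nEnd, PrE cells in culture. CUT&RUN, which cuts DNA beside an antibody-bound protein with a tethered nuclease, was run for SOX2, GATA6, H3K27ac (a mark of active regulatory elements) and H3K4me1 (a mark of enhancers). In all, 35 peak lists were used, of 10 SOX2, 5 GATA6, 10 H3K27ac and 10 H3K4me1 libraries. The lines are clones B9 and B12 of 1 parental line; all KOSR libraries are labelled B12 and both nEnd H3K4me1 libraries B9, so that for them clone and population cannot be told apart. KOSR libraries are titled with A, A1 or B, taken here as 3 sorting experiments. The labels do not say what these names stand for or whether the cells were separate. An H3K27ac and an H3K4me1 library of experiment B have labels that name both DP and SOX2+, and their values are given apart. The NACL B12 SOX2 library, whose source label names IgG and SOX2 and no medium, was grouped by its title. The title of the DP GATA6 library A ends in sub02, which the labels do not explain, so whether its list was made from all of its reads is not known. SOX2+, NACL and 2iLIF are called pluripotent below.

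The value described is the peak: its position, its maximum signal and the rank of that maximum among the peaks of its own library. The lists do not give the number of reads, and each library has its own signal scale, so a signal was compared only through its rank. A window was the gene body plus 50 kb on each side. Lists differed in length, from 1378 to 29623 SOX2 peaks, from 1391 to 32510 GATA6 peaks, from 13514 to 401853 H3K27ac peaks and from 18627 to 130749 H3K4me1 peaks, and the shortest SOX2 and GATA6 lists were those of DP cells of experiment B. The relative peak density, the share of a library's peaks that lie in the window divided by the window's share of the genome, is 1 at the genome average. The start sites of the PrE genes Gata4, Gata6, Sox17 and Pdgfra carried H3K27ac at 4 of 4 genes in both nEnd libraries, at 0 of 4 in both SOX2+ libraries and at 2 of 4 in DP. They also carried it at 3 and 2 of 4 in 2iLIF B9 and B12 and at 3 and 4 of 4 in NACL B9 and B12, whose lists are the longest, so that this mark did not separate nEnd from NACL by presence alone. Those of the pluripotency genes Pou5f1, Nanog, Zfp42 and Esrrb carried it at 3 or 4 of 4 in every pluripotent library and at 2 of 4 in both nEnd libraries.

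In the 10 SOX2 and 5 GATA6 libraries, overlapping peaks formed 25 regions in the Dab2 window, 29 in the Cubn window, 33 in the Lrp2 window and 0 in the Amn window. A region was called co-bound where at least 2 of the 3 DP SOX2 libraries and at least 2 of the 3 DP GATA6 libraries had a peak. There were 4 such regions, 1 at Dab2, 2 at Cubn and 1 at Lrp2. Of all 21938 windows, 6.71% held a co-bound region.

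The 200 bases around the strongest DP GATA6 maximum of each co-bound region are shown because these are the sites with peaks of both factors. The DP SOX2 maxima at Dab2 lay just outside the bases printed. At Cubn the region within the gene was added after its values were seen. They are from GRCm38 (mm10), plus strand, with 3 strings in capitals where they occur on either strand. AGATAA is a form read by GATA factors, CATTGT is one read by SOX factors, and CTTTGT is another SOX form.
Cubn, upstream, chr2:13496170-13496369: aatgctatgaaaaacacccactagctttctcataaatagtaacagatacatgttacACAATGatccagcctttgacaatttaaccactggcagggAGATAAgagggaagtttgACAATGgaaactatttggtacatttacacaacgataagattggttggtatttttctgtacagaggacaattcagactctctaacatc
Cubn, within the gene, chr2:13489547-13489746: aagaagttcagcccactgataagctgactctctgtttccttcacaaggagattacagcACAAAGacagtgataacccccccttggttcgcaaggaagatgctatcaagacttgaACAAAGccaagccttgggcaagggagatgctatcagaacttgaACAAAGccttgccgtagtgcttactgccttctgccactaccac
Dab2, beyond its 3′ end, chr15:6473456-6473655: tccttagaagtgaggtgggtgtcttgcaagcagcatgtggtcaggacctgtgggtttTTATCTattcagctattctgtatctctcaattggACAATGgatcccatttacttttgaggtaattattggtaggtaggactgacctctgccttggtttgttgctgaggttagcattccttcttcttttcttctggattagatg
Lrp2, upstream, chr2:69602195-69602394: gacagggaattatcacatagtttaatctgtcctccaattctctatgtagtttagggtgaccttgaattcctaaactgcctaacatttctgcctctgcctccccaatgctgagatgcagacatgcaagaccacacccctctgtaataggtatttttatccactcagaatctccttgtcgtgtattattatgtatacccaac
The upstream Cubn sequence held 1 AGATAA and 2 CATTGT, and the Dab2 sequence held 1 AGATAA and 1 CATTGT. The Cubn sequence within the gene held 3 CTTTGT and no AGATAA, and the Lrp2 sequence held none of the strings. Of the 992 co-bound regions in the genome, 74.6% held AGATAA in the same 200 bases, 27.7% CATTGT and 39.5% CTTTGT. Of all 72577 SOX2 or GATA6 regions, 34.4% held AGATAA, 26.4% CATTGT and 35.8% CTTTGT. A match is a string of letters and not a measured site. Only these 3 strings were searched, so a sequence without them may hold other forms read by GATA or SOX factors.

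For contrast, 2 regions inside Lrp2 near its start were chosen after their values were seen, since one had GATA6 without SOX2 in DP cells and the other SOX2 without GATA6.
Lrp2, GATA6 in all 3 DP libraries, chr2:69582879-69583078: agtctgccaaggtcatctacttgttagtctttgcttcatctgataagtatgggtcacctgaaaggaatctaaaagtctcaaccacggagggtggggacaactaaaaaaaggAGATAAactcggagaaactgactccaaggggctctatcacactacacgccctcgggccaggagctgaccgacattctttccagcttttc
Lrp2, SOX2 in all 3 DP libraries, chr2:69574700-69574899: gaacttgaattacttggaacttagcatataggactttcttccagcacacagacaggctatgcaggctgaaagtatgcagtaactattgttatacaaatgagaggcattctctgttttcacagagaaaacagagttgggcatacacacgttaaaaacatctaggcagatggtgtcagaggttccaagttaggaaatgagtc
The first, centred on GATA6, held 1 AGATAA. The second, centred on SOX2, held none of the 3 strings searched, and other SOX forms were not searched. Of the 19725 regions with GATA6 in both nEnd libraries, 59.5% held AGATAA. Of the 19218 regions with SOX2 in at least 2 pluripotent libraries and no GATA6, 8.42% held AGATAA, 32.2% CATTGT and 48.3% CTTTGT.

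**Figure D1:**
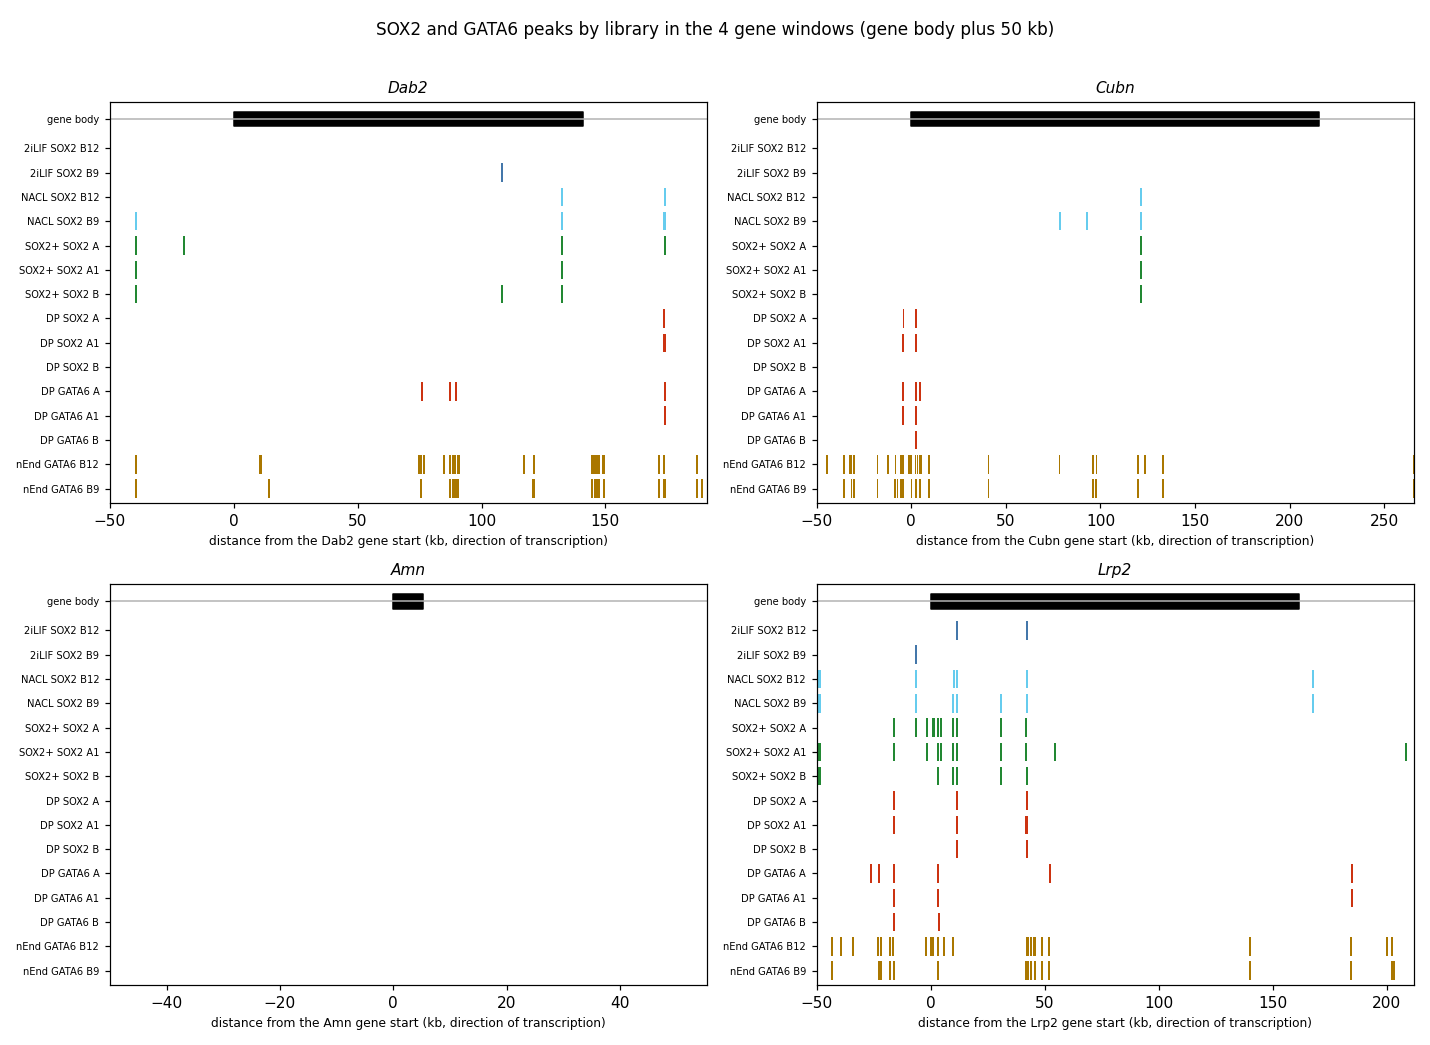
SOX2 and GATA6 peaks of the 15 libraries in the 4 windows; the x axis is the distance from the gene start in kb in the direction of transcription, each row is a library, each mark a peak, and the black bar is the gene body. Peaks of nEnd GATA6 fill the Dab2, Cubn and Lrp2 windows (16 to 27 per library), SOX2 peaks are most numerous at Lrp2, and the Amn window is empty.

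Cubn, the receptor gene at chr2:13276338-13491813 on the minus strand, carried both of its co-bound regions beside its start. One lay 4.49 kb upstream of the start, at chr2:13495700-13496914 between genes, and the other 2.21 kb inside the gene, at chr2:13489233-13489969. At the upstream region, the SOX2 peak exceeded 64.1% of the peaks of its library in DP A and 82.5% in DP A1, and DP B had none. The GATA6 peak there exceeded 84.1% in DP A and 89.6% in DP A1, and again DP B had none. In nEnd, the upstream GATA6 peak ranked 138 of 24223 in B9 and 142 of 32510 in B12. At the region inside the gene, the GATA6 peak exceeded 95.8% of peaks in DP A, 91.3% in DP A1 and 27.5% in DP B, and ranked 784 and 733 in nEnd B9 and B12. The SOX2 peak there exceeded 82.2% in DP A and 76.5% in DP A1. The maxima of SOX2 and GATA6 of the same experiment were at most 52 bases apart upstream and at most 85 bases apart inside the gene.

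Neither Cubn region had a SOX2 peak in any of the 7 pluripotent libraries. Of all co-bound regions, 26.2% had none. In the pluripotent libraries SOX2 lay elsewhere in Cubn, at chr2:13370482-13370961, in an intron 121 kb downstream of the start. That region had SOX2 in both NACL and all 3 SOX2+ libraries, in no 2iLIF and no DP library, and GATA6 in none. Its SOX2 peak exceeded 87.9% and 91.4% of peaks in NACL B9 and B12, and 67.2%, 83.1% and 52.0% in SOX2+ A, A1 and B. H3K4me1 lay over it in all 6 pluripotent libraries and in DP, and its SOX2+ A peak ranked 626 of 58085. H3K27ac peaks of both nEnd libraries, above 94.7% and 98.4% of peaks, reached over it with their maxima outside the region. Those of NACL B9 and B12, above 94.3% and 95.0% of peaks, had their maxima inside it. Both 2iLIF libraries, SOX2+ A and DP had it too.

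The Cubn promoter also had GATA6 in nEnd, in a region at chr2:13491795-13492257 over the start. The peak there was weak in B9, above 11.6% of peaks, and above 76.9% in B12. The 250 bases before the RefSeq start in the GRCm38.p6 table, minus strand, held none of the 3 strings, against 9.99% of 32851 promoters with AGATAA, 10.7% with CATTGT and 16.5% with CTTTGT.
Cubn promoter: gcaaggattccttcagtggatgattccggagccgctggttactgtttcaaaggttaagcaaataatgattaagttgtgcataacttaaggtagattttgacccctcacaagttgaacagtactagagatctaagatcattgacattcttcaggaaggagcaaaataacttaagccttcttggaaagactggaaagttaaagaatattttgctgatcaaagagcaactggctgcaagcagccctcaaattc

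Lrp2, at chr2:69424340-69586065 on the minus strand, was the gene of the 4 with most SOX2 in pluripotent cells. The window held 1 and 2 SOX2 peaks in 2iLIF B9 and B12, 7 and 6 in NACL B9 and B12, and 10, 11 and 6 in SOX2+ A, A1 and B. The relative density was 1.66 ± 1.24 (SD, n = 2) in 2iLIF, 3.06 ± 0.842 (n = 2) in NACL and 5.90 ± 0.319 (n = 3) in SOX2+. All 3 SOX2+ libraries stood above all 4 2iLIF and NACL libraries, which was so for 6.16% of the 17330 windows with a SOX2 peak in them; this comparison was chosen after the values were seen. The exact permutation test gave p = 0.0571, the smallest that 35 splits allow, and an adjusted p of 0.591 over all windows.

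Of 5 Lrp2 regions with SOX2 in all 3 SOX2+ libraries, 2 had SOX2 in at least 2 DP libraries. For Dab2 the count was 0 of 2 and for Cubn 0 of 1, and over the genome it was 30.7% of 9076 regions. Both Lrp2 regions that retained SOX2 had it in all 3 DP libraries and had no DP GATA6 peak. The first was the region printed above for SOX2 without GATA6, at chr2:69574612-69575000 in an intron 11.3 kb from the start. There SOX2 exceeded 75.0%, 67.4% and 69.6% of peaks in DP A, A1 and B, and 89.4%, 95.5% and 81.0% in SOX2+ A, A1 and B. The H3K4me1 peak over it ranked 6 of 58085 in SOX2+ A and 1561 of 78354 in SOX2+ B. H3K27ac lay over it in all 6 pluripotent libraries, in DP and in both nEnd libraries. The second, 41.8 kb from the start, held the strongest Lrp2 SOX2 peaks of SOX2+ cells, ranked 231 of 16819 in A, 379 of 20609 in A1 and 287 of 10513 in B. In DP its SOX2 peak exceeded 24.6% of peaks in A, 85.2% in A1 and 20.2% in B. GATA6 peaks of both nEnd libraries overlapped that region, but they were among their weakest, above 6.94% of peaks in B9 and 0.0954% in B12.

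GATA6 lay at other Lrp2 sites in DP cells. At chr2:69582766-69583421, in an intron 2.97 kb from the start, GATA6 exceeded 79.1% of peaks in DP A, 86.2% in A1 and 62.7% in B, and 84.7% and 97.1% in nEnd B9 and B12. SOX2 was present there in all 3 SOX2+ libraries, above 24.7%, 57.5% and 4.90% of peaks, and in none of the 3 DP libraries. The co-bound region lay 16.4 kb upstream, at chr2:69602066-69602939. It had SOX2 in DP A and A1 (above 47.8% and 87.6% of peaks) and GATA6 in DP A, A1 and B (above 73.9%, 77.5% and 12.4%). Weaker SOX2 peaks, above 16.5% and 12.2%, were already there in SOX2+ A and A1. The maxima of the factors were up to 225 bases apart, more than at the Cubn and Dab2 co-bound regions. In nEnd, GATA6 there exceeded 37.6% of peaks in B9 and 75.2% in B12.

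Dab2, the adaptor gene at chr15:6299788-6440712 on the plus strand, had its co-bound region 174 kb from its start, at chr15:6473071-6473785, beyond the 3′ end of Dab2 and in an intron of C9. C9 encodes a complement component, so the region cannot be assigned to Dab2 from position alone. SOX2 exceeded 36.6% of peaks there in DP A and 83.9% in DP A1, and GATA6 62.7% and 56.9%. Unlike the Cubn regions it also had SOX2 in pluripotent cells, in both NACL libraries (above 55.8% and 52.6% of peaks) and in SOX2+ A (above 16.5%). In nEnd its GATA6 peak ranked 2021 of 24223 in B9 and 534 of 32510 in B12. Broad H3K4me1 peaks of nEnd S8 and S20, ranked 130 of 42816 and 7 of 18627, reached over it, but their maxima lay outside the region, at positions 6471532 and 6471513.

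No GATA6 peak lay within 1 kb of the first Dab2 start. At the internal start listed by RefSeq at chr15:6386748, 87.0 kb downstream, both nEnd GATA6 libraries had a peak, above 79.6% of peaks in B9 and 88.6% in B12, and DP A had one above 26.7%. The other 4 pluripotent SOX2 regions of Dab2 had no SOX2 peak in any DP library. One, at chr15:6431787-6432203 in an intron, had SOX2 in both NACL and all 3 SOX2+ libraries, up to 90.1% of peaks in SOX2+ A1. Another, at chr15:6259822-6260526, upstream by 39.6 kb, had SOX2 in NACL B9 and all 3 SOX2+ libraries, and GATA6 in both nEnd libraries above 74.1% and 82.7% of peaks. The remaining 2 had SOX2 in SOX2+ A alone and in 2iLIF B9 and SOX2+ B.

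**Figure D2:**
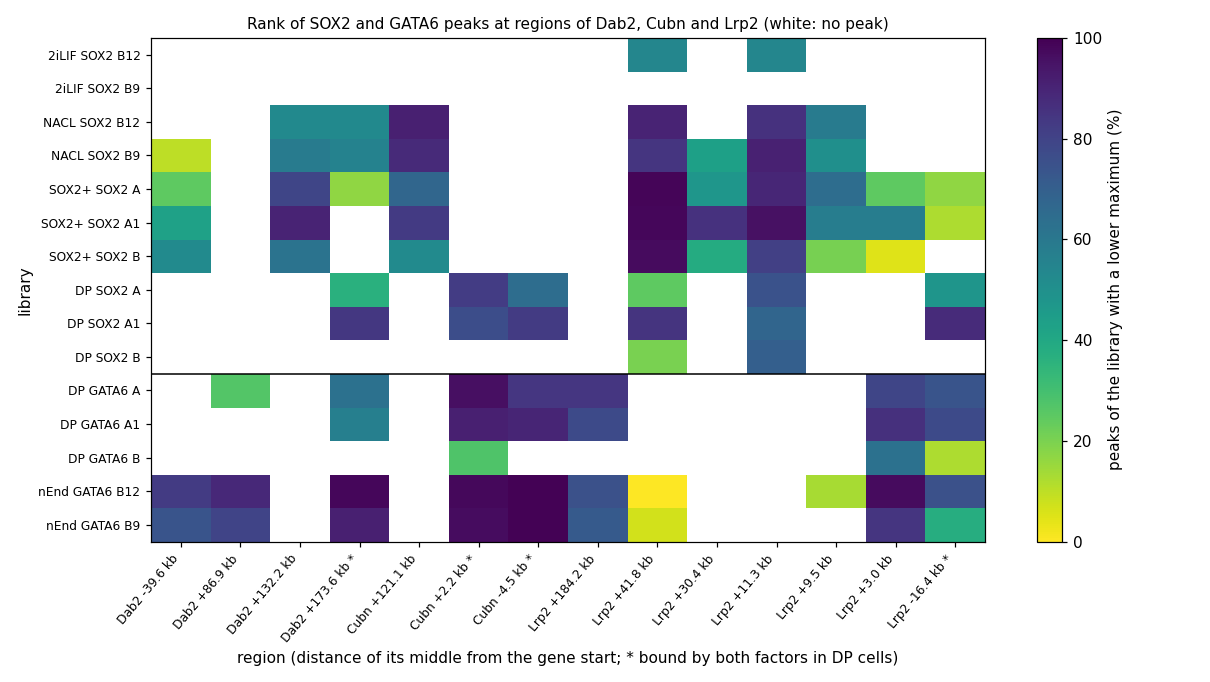
Rank of each SOX2 and GATA6 peak within its library at 14 regions of Dab2, Cubn and Lrp2; colour is the percentage of the library's peaks with a lower maximum, white is no peak, and an asterisk marks the 4 co-bound regions. The 2 Cubn regions beside the start are empty in all 7 pluripotent rows, while the Lrp2 regions at 41.8 and 11.3 kb are filled in all SOX2 rows of SOX2+ and DP cells.

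All 4 co-bound regions had GATA6 in both nEnd libraries, as did 70.9% of the co-bound regions of the genome. The count of 4 rests on the experiments A and A1: none of the 4 had SOX2 in DP B, whose list held 1378 peaks, and without DP SOX2 A or A1, where a peak in both remaining libraries and so in DP B was required, the counts were 0 at Dab2, Cubn and Lrp2.

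Counted over whole windows, SOX2 density in DP cells was not separated from that in pluripotent cells at any of the 4 genes. At Lrp2 it was 6.43, 5.87 and 15.1 in DP A, A1 and B, from 3, 3 and 2 peaks, against 3.88 ± 2.07 (SD, n = 7) in pluripotent libraries, which ran from 0.790 to 6.19. The highest value came from the shortest list. The difference of 5.26 had p = 0.05 in the exact permutation test of 120 splits, two-sided, and an adjusted p of 0.288 over the 17442 windows tested. At Cubn, DP A and A1 had 2 SOX2 peaks each and DP B 0, and the mean was 2.3 ± 1.97 (n = 3) against 0.448 ± 0.349 (n = 7), with an exact permutation p = 0.133 and an adjusted p of 0.450. At Dab2 the means were 1.48 ± 1.29 and 1.48 ± 1.11, and the exact permutation test gave p = 1. Without DP B, the shortest list, the differences were 2.275 at Lrp2, 2.95 at Cubn and 0.750 at Dab2. Without DP A the difference was 1.176 at Cubn. Without the NACL B12 library the differences were 5.22 at Lrp2, 1.83 at Cubn and -0.0186 at Dab2. Within experiments A, A1 and B, DP minus SOX2+ was 0.238, 0.314 and 9.17 at Lrp2 and 3.04, 2.83 and -0.822 at Cubn. At Dab2 it was -0.362, 1.03 and -3.23. Every DP library stood above every pluripotent one in 5.2% of windows, and in none of those of the 4 genes. With the 1378 strongest peaks of each library the share was 4.37% of 4349 windows, again with none of the 4. No window of any gene passed an adjusted p of 0.05, and 2692 had an unadjusted p under it.

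In nEnd, GATA6 peaks were dense at the receptors and the adaptor. The Dab2 window held 17 and 20 peaks in B9 and B12, the Cubn window 18 and 27 and the Lrp2 window 16 and 23. Regions present in both nEnd libraries numbered 14, 17 and 15, which was more than in 99.5%, 99.8% and 99.7% of all windows. Per 100 kb of window they numbered 5.81, 5.39 and 5.73, above 97.6%, 96.7% and 97.4% of windows. At least 1 such region was present in 61% of windows. Of the 46 regions, 23 lay in the body of the gene itself, 13 in a neighbouring gene (C9, Rsu1, Trdmt1 or Dhrs9) and 10 between genes. Within 10 kb of the gene start lay 7 of 17 at Cubn, 1 of 15 at Lrp2 and 0 of 14 at Dab2.

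The relative GATA6 density in nEnd was 7.45 ± 0.693 (SD, n = 2) at Dab2, 6.80 ± 0.534 at Cubn and 7.12 ± 0.346 at Lrp2, and their order was not larger than the spread between the libraries. In DP A, A1 and B it was 5.44, 2.96 and 0 at Dab2, 3.12, 4.52 and 6.21 at Cubn and 7.51, 8.18 and 14.97 at Lrp2. Both nEnd libraries thus stood above all 3 DP libraries at Dab2 and Cubn and below them at Lrp2, where the DP values rest on 6, 3 and 2 peaks. Both nEnd libraries stood above all DP libraries in 44.8% of the 16821 windows with a GATA6 peak, and below all of them in 6.17%. The differences were 4.65 at Dab2, 2.18 at Cubn and -3.10 at Lrp2, each with p = 0.2, the smallest that 10 splits of 2 against 3 libraries allow in the exact permutation test, so that no gene could pass the threshold. Without DP B, the shortest list, they were 3.25 at Dab2, 2.98 at Cubn and -0.722 at Lrp2. Without DP A they were 5.97, 1.43 and -4.45, and the co-bound counts, with a peak required in both other GATA6 libraries, were 0 at Dab2, 1 at Cubn and 1 at Lrp2. When the 1391 strongest peaks of each library were used, only Dab2 still had nEnd above DP, as did 16.3% of 4517 windows. Its window then held 1 and 2 peaks in nEnd B9 and B12 and 0 in each DP library. At Cubn nEnd then had 2 and 2 peaks against 2, 2 and 1 in DP, and at Lrp2 0 and 3 against 2, 3 and 2, so that neither gene kept its separation.

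Of the 46 regions bound in both nEnd libraries, 12 had GATA6 in at least 1 DP library: 4 of 14 at Dab2, 3 of 17 at Cubn and 5 of 15 at Lrp2. Over the genome 20.4% of 19725 such regions did. H3K4me1 lay over 11 of the 46 in both SOX2+ libraries, with 5 at Dab2, 2 at Cubn and 4 at Lrp2, and over 24.4% of the regions of the genome. In the DP library it lay over 29 of the 46, with 9, 10 and 10 at the 3 genes, and over 57.3% of the genome's regions. H3K27ac lay in both nEnd libraries over 12 of 14 regions at Dab2, 14 of 17 at Cubn and 8 of 15 at Lrp2, and over 58.5% of all such regions.

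**Figure D3:**
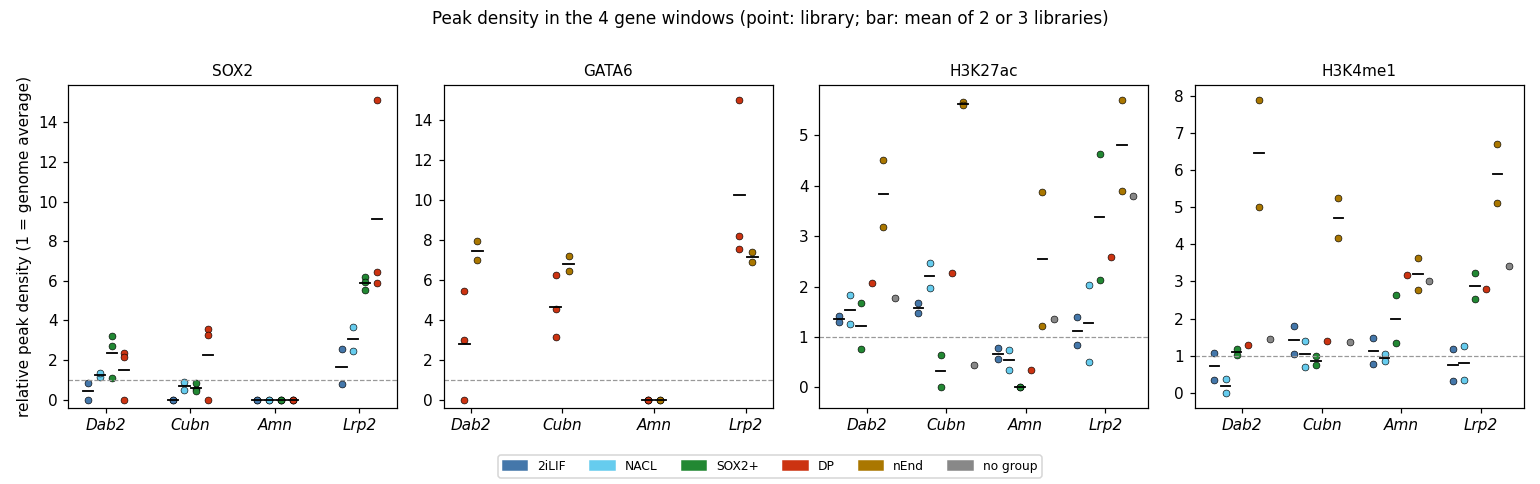
Relative peak density of each library in the 4 windows, by antibody; the y axis is the density with 1 as the genome average (dashed line), points are libraries and bars the mean of 2 or 3. For H3K4me1 both nEnd points lie above all pluripotent points at each of the 4 genes, and for SOX2 and GATA6 the Amn points are at 0.

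The nEnd windows of the receptors and the adaptor held broad peaks of the histone marks. At Dab2, H3K4me1 peaks covered 49.5% and 30.5% of the window in nEnd S8 and S20 and at most 6.06% in a pluripotent library. H3K27ac covered 32.4% and 37.98% of it in nEnd B9 and B12, and from 0.580% to 24.1% in the pluripotent libraries. At Cubn the H3K27ac coverage was 25.1% and 72.8% in nEnd B9 and B12 against up to 43.4% in NACL B12, and at Lrp2 it was 19.6% and 59.4% against up to 24.6%, so that at these 2 genes nEnd B9 lay inside the pluripotent range. At Cubn a single H3K27ac peak of nEnd B12, at chr2:13390657-13511228, ran 120572 bases from inside the gene to beyond its start and both co-bound regions, and it ranked 90 of 20072. In nEnd B9 the same place had a peak of 23400 bases that ranked 824 of 21394. At Lrp2 the start carried H3K27ac peaks of 12444 and 16138 bases in nEnd B9 and B12, above 72.7% and 89.3% of peaks. In DP cells the start of Cubn carried H3K27ac above 87.6% of peaks and the start of Lrp2 above 56.6%, from 1 library. Both NACL libraries also had H3K27ac within 1 kb of both starts, above 44.3% and 95.0% of peaks at Cubn (the latter a peak of 16371 bases whose maximum lay upstream of that 1 kb) and 6.71% and 78.2% at Lrp2. No 2iLIF or SOX2+ library had it there, but the SOX2+ lists hold 13514 and 14722 peaks and the DP list 76260, and the part of list length in this was not tested.

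**Figure D4:**
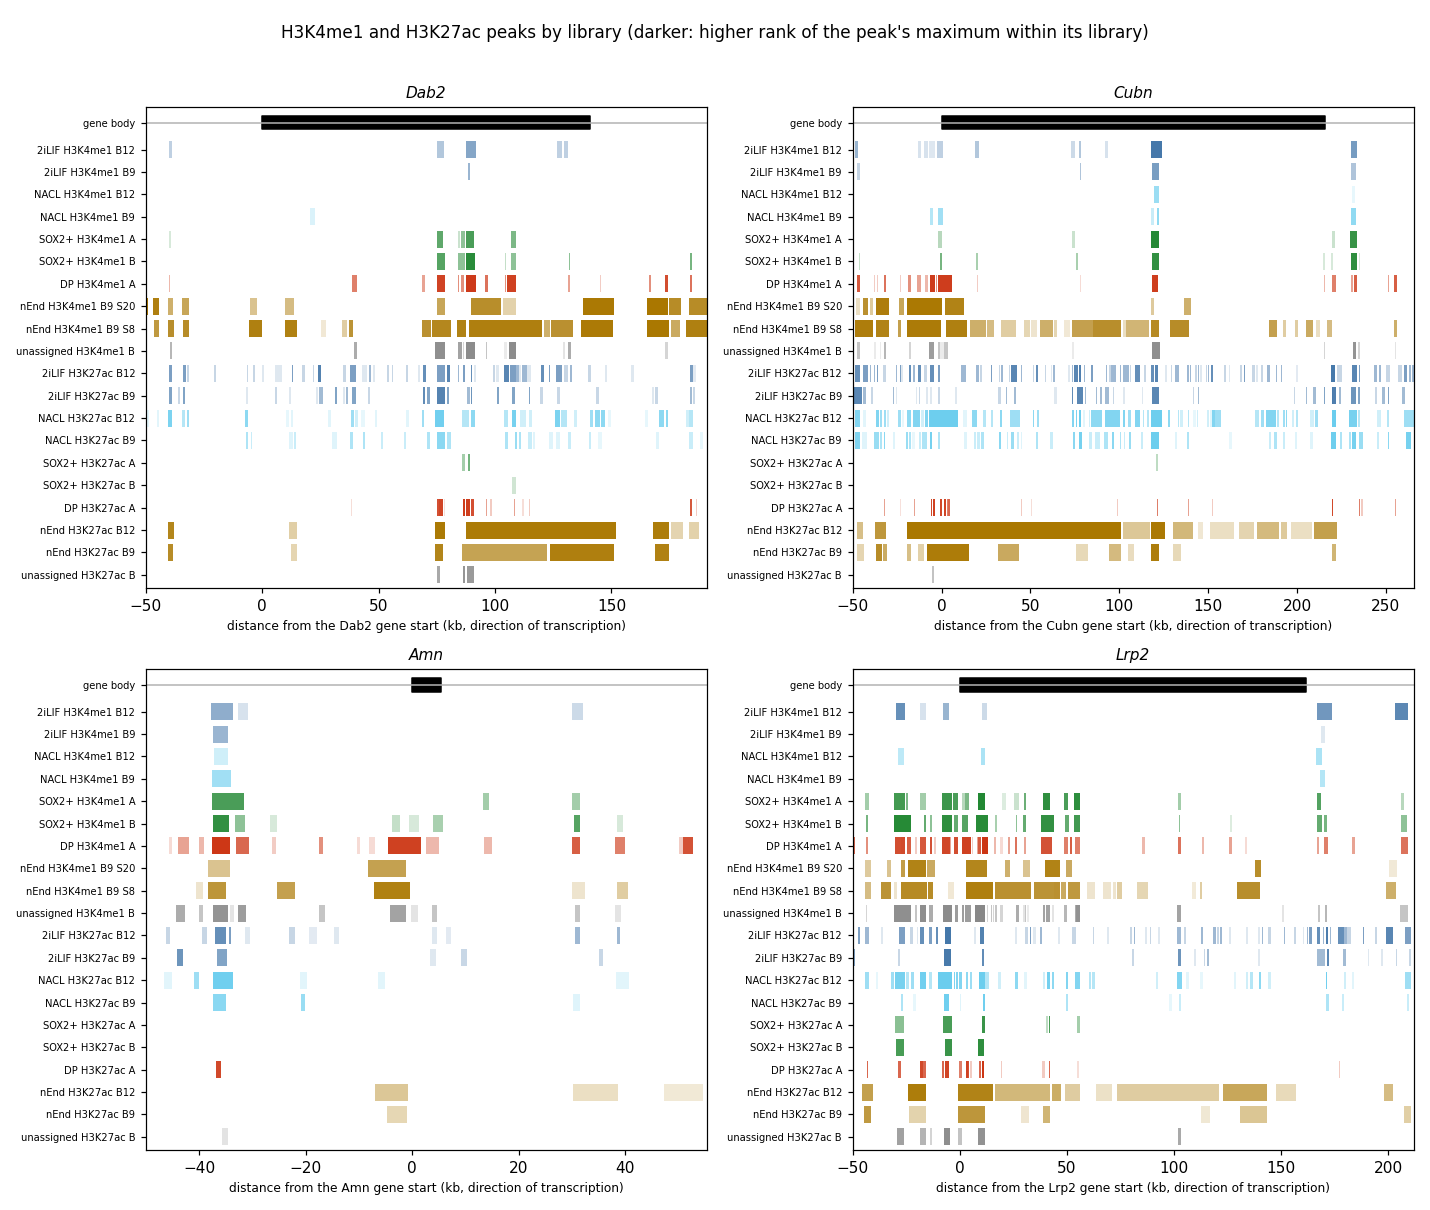
H3K4me1 and H3K27ac peaks of 20 libraries in the 4 windows; the x axis is the distance from the gene start in kb, each row a library, and a darker mark is a peak of higher rank in its library. The nEnd rows show wide peaks at Dab2, Cubn and Lrp2, and the SOX2+ and DP H3K4me1 rows show narrow peaks near the Lrp2 start. At Amn the highest-ranked peak of each nEnd row lies just upstream of the gene.

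H3K4me1 density in nEnd S8 and S20 was 5.02 and 7.90 at Dab2, 5.25 and 4.17 at Cubn, 3.63 and 2.78 at Amn and 5.11 and 6.71 at Lrp2. The 6 pluripotent libraries ran from 0 to 1.17 at Dab2, from 0.6995 to 1.81 at Cubn, from 0.778 to 2.64 at Amn and from 0.313 to 3.23 at Lrp2. The groups did not overlap at any of the 4 genes, and the same was so for 16.9% of 19824 windows. The difference at Dab2, 5.80, was larger than that of 99.6% of windows tested, that at Lrp2, 4.43, larger than 98.3%, and that at Cubn, 3.60, larger than 96.3%. At Amn it was 1.85, larger than 84.8%. Each had p = 0.0714, the smallest that 28 splits allow in the exact permutation test, and an adjusted p of 0.258. With the 18627 strongest peaks of each library the groups again did not overlap at any of the 4, as in 16.1% of 17970 windows.

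Among pluripotent cells, H3K4me1 at Lrp2 was denser in SOX2+ than in the others. SOX2+ A and B had 18 and 19 peaks, against 1 and 6 in 2iLIF B9 and B12 and 1 and 3 in NACL B9 and B12. The relative density was 3.23 and 2.53 in SOX2+ A and B and at most 1.26 in 2iLIF and NACL. The DP library had 35 peaks from the longest list, and its density of 2.79 lay between the SOX2+ values. Both SOX2+ libraries stood above all 2iLIF and NACL libraries in 20.2% of 19605 windows; this was seen after the fact and was not tested.

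H3K27ac density in nEnd B9 and B12 was 3.17 and 4.51 at Dab2, 5.65 and 5.60 at Cubn, 1.21 and 3.87 at Amn and 3.89 and 5.71 at Lrp2. The pluripotent libraries ran from 0.768 to 1.82 at Dab2, from 0 to 2.46 at Cubn, from 0 to 0.773 at Amn and from 0.511 to 4.62 at Lrp2. The groups did not overlap at Dab2, Cubn and Amn, and overlapped at Lrp2 through SOX2+ A, the highest pluripotent library. Non-overlap was seen in 30.8% of 21291 windows. The differences were 2.47, 4.25 and 2.14, each with p = 0.0714 in the exact permutation test and an adjusted p of 0.203, and 2.88 at Lrp2 with p = 0.143. With weaker peaks left out (the lower 50% of every list), the sign at Amn turned, to -0.297, since neither nEnd library had an Amn peak above the middle of its list. With the 13514 strongest H3K27ac peaks of each library, the Amn window held 0 peaks in all 8 libraries, so that the separation at Amn rests on weak peaks. Dab2 and Cubn were still separated then, as were 17.9% of 17243 windows.

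Amn, at chr12:111271095-111276426 on the plus strand, stood apart in having no SOX2 or GATA6 peak in any of the 15 libraries within 50 kb. Of all windows, 11.4% had none. The Amn gene is short and its window of 105332 bases would hold 1.26 GATA6 peaks of the longest nEnd list at the genome average. That value is for a single list, and the part of window length in the absence from all 15 libraries was not tested. With 100 kb on each side, 2 regions with GATA6 in both nEnd libraries came into the window. What Amn did carry was a marked element just upstream of the gene. H3K4me1 lay at chr12:111263913-111270699 in nEnd S8 (above 91.5% of peaks) and at chr12:111262759-111269958 in nEnd S20 (above 63.2%). H3K27ac had 1 peak in the whole window in nEnd B9, and 3 in nEnd B12 that covered 21.1% of it. At this element it lay at chr12:111266451-111270146 in nEnd B9 and chr12:111264083-111270253 in nEnd B12. These were above 16.7% and 30.2% of peaks, so they were weak peaks of their libraries. The DP H3K4me1 library had a peak there that reached over the Amn start, at chr12:111266460-111272670, above 92.2% of peaks. SOX2+ B had weak H3K4me1 peaks there, above 13.7% and 3.68%, and no 2iLIF or NACL library had H3K4me1 there. The neighbouring gene Traf3 ends at position 111267153, inside this element. A second element, about chr12:111233639-111236455 within Traf3, had H3K4me1 in all 9 libraries with a group. It had H3K27ac in 2iLIF, NACL and DP but in neither nEnd library and neither SOX2+ library.

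The 250 bases before the Amn start (RefSeq, GRCm38.p6, plus strand), shown because Amn had no bound region, held none of the 3 strings.
Amn promoter: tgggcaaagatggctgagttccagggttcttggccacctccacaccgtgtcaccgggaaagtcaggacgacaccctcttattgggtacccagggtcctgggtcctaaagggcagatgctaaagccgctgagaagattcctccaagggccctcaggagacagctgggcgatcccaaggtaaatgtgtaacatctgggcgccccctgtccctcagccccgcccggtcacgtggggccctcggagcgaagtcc

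The 2 libraries of experiment B with conflicting labels were described alone. The H3K4me1 library had 12 peaks at Dab2, 15 at Cubn, 11 at Amn and 31 at Lrp2, and relative densities of 1.44, 1.37, 3.01 and 3.42. The H3K27ac library had 3, 1, 1 and 7 peaks. At the upstream Cubn co-bound region it had H3K27ac above 41.1% of its peaks, and at the Lrp2 region 11.3 kb from the start above 90.3%.

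Other genes of the endocytic route had windows of other lengths, so their numbers of regions cannot be set against those of the members directly. Of 25 such genes, covering related receptors, the chaperone Lrpap1, adaptors, clathrin, a motor and sorting proteins, 22 had a region with GATA6 in both nEnd libraries (61% of all windows did), and the median number was 3, against 1 over all windows and 14 to 17 at Dab2, Cubn and Lrp2. Cltc, the clathrin heavy chain, had 14, as many as Dab2. The relative GATA6 density in nEnd, which allows for window length, had a median of 2.55 over the 25 and of 1.16 over all windows. Its highest values, picked out after they were seen, were 10.3 at Rab11a, a sorting GTPase, 9.54 at Cltc and 8.41 at Ehd1, a recycling protein, each above the means of the 3 bound members. A co-bound region, present in 6.71% of all windows, lay at 5 of the 25: Lrpap1, which folds megalin and its relatives, Ap2b1, Ap2s1, Rab7 and Rab11a. Among the receptors, Vldlr had 1 region with GATA6 in both nEnd libraries, Lrp8 3 and Lrp1 0. Both nEnd libraries stood above all pluripotent ones in H3K4me1 at 8 of 25 and in H3K27ac at 14 of 25, and above all DP libraries in GATA6 at 10 of 25. Over all windows these shares were 16.9%, 30.8% and 44.8%, so that the GATA6 count was not above the share of all windows. In SOX2, every DP library stood above every pluripotent library at 2 of 25, against 5.2% of all windows. Of these 2, Myo6, a motor of endocytic vesicles, had at most 1 SOX2 peak in a DP library.

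Over the 33 libraries with a group, the density profiles (log2 of 1 plus the density) of Dab2 and Cubn were more alike, with r = 0.66, than those of Dab2 and Lrp2 (r = 0.38) or Cubn and Lrp2 (r = 0.37). Amn followed none of them closely, with r = 0.16 to Dab2, r = 0.26 to Cubn and r = -0.22 to Lrp2. The genes most like Dab2 were Bex3, App and Serac1 (r = 0.87, 0.82 and 0.82). Those most like Cubn were Aqp8, Zkscan2 and Yeats4 (r = 0.91, 0.90 and 0.88). Those most like Lrp2 were Pigyl, Acp5 and Elof1 (r = 0.88, 0.86 and 0.85), and those most like Amn were Tubgcp6, Hdac10 and Selenoo (r = 0.94, 0.93 and 0.92). The libraries share antibodies and list lengths, so these correlations describe the lists and were not tested.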

How the data were processed

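CUT&RUN libraries of SGGC cells were analysed as the peak lists deposited by the authors, who trimmed reads with cutadapt 1.18, aligned them to mm10 (GRCm38) with Bowtie2 2.3.4.1 and called peaks with SEACR against IgG, per the labels and the study's methods; SAMtools 1.9, Picard 2.9.1, bedtools 2.27.1 and deepTools 3.2.0 are also listed. Each deposited list gives a total and a maximum signal per peak, in whole numbers on the library's own scale. The list names give relaxed calls for histone marks and stringent calls for transcription factors, which the methods state the other way round. The 18 IgG samples entered no comparison.

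Peaks overlapping a window by at least 1 base were counted for all 21938 protein-coding genes of GENCODE M21 with Python 3 and NumPy. Groups were compared by exact permutation of library labels, two-sided, with Benjamini-Hochberg adjustment over all windows holding a peak of the antibody. The test was checked on simulated data. The 4 genes and the gene lists were chosen with earlier results of these data known. The genes named are the 4, neighbours in whose bodies a described element lay, examples from the 25 endocytic genes (counted in full, 1 not reported here by name) and the 3 genes most like each member.

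Library pairs of one group shared at most 0.29% of intervals, so all were kept as separate libraries. Nothing says that sorts A, A1 and B were separate cultures, so p-values measure the spread between libraries. B9 and B12 pair libraries by clone, as the labels give it. Over 28 pairs of groups the correlation of same-clone deviations from the group mean ran from 0.00016 to 0.248, and 4 were over 0.1. For the sorts, 22 such values ran from -0.030 to 0.0911, and 0 were over 0.1. Alternatives were other flanks, covered bases, stronger peaks, equal peak numbers, the position of the maximum, each library left out, and blocks by clone or sort.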

Additional observations from a re-analysis of the deposited data

Results flagged for a closer look

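In the Amn window, the SOX2+ H3K4me1 library of experiment B had a relative peak density of 2.64, far above the other 5 pluripotent libraries. It was the only such value among 11 groups of densities examined, where chance gives about 1 in 20. With the 18627 strongest peaks of each library, the SOX2+ B density was 1.39, the same as in SOX2+ A, 2iLIF B9 and both NACL libraries. The DP H3K4me1 library had a density of 3.17 in this window.

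Signal was also present in the 2 libraries that enter no comparison because their labels name both DP and SOX2+. The H3K4me1 library had 12 peaks in the Dab2 window, 15 in the Cubn window, 11 in the Amn window and 31 in the Lrp2 window. The H3K27ac library had 7 peaks in the Lrp2 window. Each is more than 3 peaks, the limit set for a library with no group.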

How the results depend on the processing

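Recomputed under the alternatives, 207 density differences kept their sign and 13 turned, and none passed an adjusted p of 0.05. Of the turned values, 12 belong to SOX2 at Dab2, where DP and pluripotent means were equal to 2 decimals: it was -1.13 with 10 kb flanks, -0.142 with the stronger 50% of peaks, -0.854 in DP against SOX2+ only, and from -0.414 to 0.750 when a library was left out. The last was H3K27ac at Amn, -0.297 with the stronger 50% of peaks. With the clone as a replicate block, SOX2 at Dab2 was -0.183, and with the experiment as a replicate block, DP against SOX2+, it was -0.854; the block changed no other sign. Leaving out DP GATA6 B moved the GATA6 difference at Lrp2 from -3.10 to -0.722, and 10 kb flanks moved it to -0.629.

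Counts of co-bound regions moved more. With a peak required in all 3 DP libraries they were 0 at Dab2, 0 at Cubn and 0 at Lrp2. With 10 kb flanks they were 0 at Dab2 and 0 at Lrp2, and with 100 kb flanks 2 at Dab2. With the stronger 50% of peaks Dab2 had 0. Leaving out a DP library, with a peak required in both others of that factor, gave 0 to 1 at Dab2, 0 to 2 at Cubn and 0 to 1 at Lrp2. Regions with GATA6 in nEnd numbered 22, 27 and 24 at Dab2, Cubn and Lrp2 when 1 nEnd library sufficed, 8 at Lrp2 with 10 kb flanks, 2 at Amn with 100 kb flanks, and 5 at Cubn and 9 at Lrp2 with the stronger 50% of peaks. The causes were not tested. The DP lists limit what could be seen: the 3 SOX2 lists of DP cells hold 1378 to 5320 peaks, so a site without a DP peak may have been below the caller's threshold. SOX2 and GATA6 at Amn gave no density difference, since no library had a peak there. H3K27ac at Amn gave none with equal peak numbers, for the same reason.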
